A study of Mus musculus with 2 samples.

Results

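The miR-29 family consists of 4 microRNA (miRNA) genes in the mouse, Mir29a, Mir29b-1, Mir29b-2 and Mir29c. They lie in 2 clusters, Mir29a with Mir29b-1 on chromosome 6 and Mir29b-2 with Mir29c on chromosome 1. The 4 genes were taken by their GENCODE M21 names from the 2202 miRNA genes of the deposited tables. The data are microRNA sequencing libraries of hippocampus, labelled as the layer of hippocampus, from male mice aged 25 days. Their strain was B6CASTF1/J, hybrids of a C57BL/6J by CAST/EiJ cross, and no treatment, transgene or second genotype is named. There are 2 libraries, given as biological replicates 1 and 2 of 1 group, with separate biosamples and a shared donor entry. The labels do not say whether animals were pooled. With 1 library for each replicate, differences between animals and between library preparations cannot be told apart, so differences between these 2 libraries may be technical. With 1 age and 1 tissue, a change with brain maturation was not measured, and what the design allows is the level of each gene, the order of the genes and the difference between the libraries.

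A miRNA gene is transcribed into a long precursor, from which Drosha cuts a hairpin and Dicer then cuts a short duplex with a 5p and a 3p arm. The arm that is loaded onto an Argonaute protein pairs through its seed, bases 2 to 8 from the 5′ end, with target messenger RNAs and represses them. The miR-29 miRNAs are known for a strong rise in the brain after birth, and their known targets include collagens and other matrix proteins, DNA methyltransferases and pro-apoptotic BH3-only proteins.

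The mature sequences show what the family shares and what keeps its members apart. They are given from RefSeq (GRCm38.p6), where all 4 genes had an entry, with the seed in capitals. The 3p arms, from which the family takes its name, were these.
miR-29a-3p: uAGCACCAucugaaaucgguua
miR-29b-3p: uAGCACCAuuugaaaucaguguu
miR-29c-3p: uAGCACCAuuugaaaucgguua
All 3 hold the seed AGCACCA, and of 1679 mouse mature miRNAs in the RefSeq table these 3 alone hold it. From miR-29a-3p to miR-29c-3p there was 1 difference over 22 bases, C10U, counted from 1 at the 5′ end. From miR-29b-3p to miR-29c-3p there were 3 differences over the 22 bases compared, A18G, G21U and U22A. The 3p arm of Mir29b-1 and that of Mir29b-2 are 1 and the same sequence of 23 bases, held by 2 miRNA genes, whereas miR-29a-3p and miR-29c-3p are each held by 1.

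The 5p arms differ from gene to gene and share no seed with each other.
miR-29a-5p: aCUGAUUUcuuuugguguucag
miR-29b-1-5p: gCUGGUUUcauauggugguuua
miR-29b-2-5p: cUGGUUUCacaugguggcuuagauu
miR-29c-5p: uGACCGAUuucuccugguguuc
Each 5p arm was held by 1 miRNA gene. The counts are given per gene, so 5p and 3p reads of a gene are summed and cannot be separated.

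Reads that align to several places are held apart from the gene counts in these tables, so the stretch that the Mir29b genes have in common bears on what their counts can hold. Their hairpins are printed with the longest stretch shared by the other Mir29b gene in capitals.
Mir29b-1: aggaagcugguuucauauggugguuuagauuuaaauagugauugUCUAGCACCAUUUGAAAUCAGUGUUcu
Mir29b-2: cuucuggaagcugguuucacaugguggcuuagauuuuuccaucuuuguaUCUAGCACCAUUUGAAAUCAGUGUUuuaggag
The shared stretch is 25 bases long. It starts 2 bases before the mature miR-29b-3p and ends with its last base, so that an exact full-length miR-29b-3p read has 2 places of origin. Mir29c shares 22 bases with Mir29b-1 and 19 bases with Mir29b-2. Mir29a shares at most 14 bases with any other miRNA gene in these tables. That stretch, in common with Mir29c, is bases 28 to 41 of Mir29a. It starts within the 5p arm, bases 16 to 37, and ends between the arms.

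Cut into all stretches of 20 bases, Mir29a had 69 of 69 that occur in no other miRNA gene on either strand. Mir29c had 66 of 69, Mir29b-2 had 56 of 62 and Mir29b-1 had 43 of 52. In every case the other miRNA gene was a miR-29 gene. Among other GENCODE M21 transcripts, the 9 shared stretches of Mir29b-1 also occur in A330023F24Rik and Cd46, the genes whose exons hold Mir29b-2 and Mir29c on chromosome 1, and no further 20-base stretch was found in a transcript of a gene that does not overlap its own locus. The remaining genome was not used here.

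**Figure D1:**
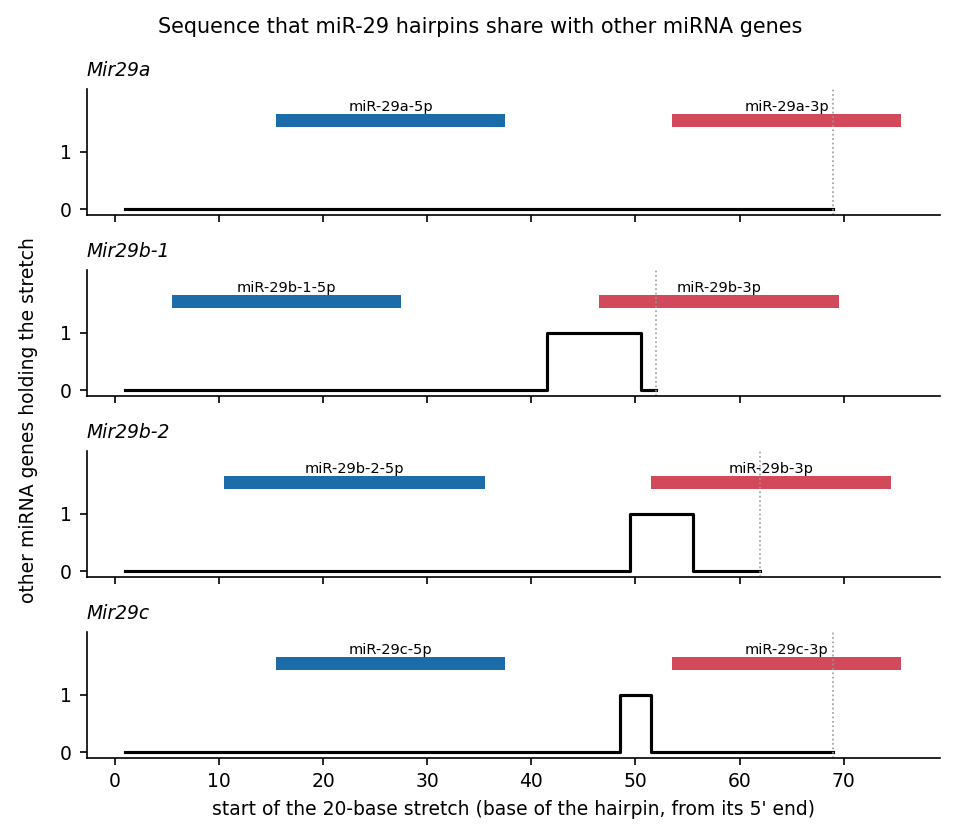
Number of other miRNA genes (y axis) that hold the 20-base stretch starting at each base of the hairpin (x axis), for the 4 miR-29 genes; blue bars mark the 5p arm, red bars the 3p arm and the dotted line the last possible start. The line stays at 0 throughout Mir29a and rises to 1 around the start of the 3p arm of both Mir29b genes and just before that of Mir29c.

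Mir29a (ENSMUSG00000065610.1) lies on chromosome 6 from 31062660 to 31062747, minus strand, in mm10. No other annotated gene overlaps it. Mir29b-1 (ENSMUSG00000065604.2) lies at 31063023 to 31063093 on the same strand, and the noncoding gene Gm27019 covers 2 of its bases. Mir29b-2 (ENSMUSG00000065412.3) lies on chromosome 1 from 195037040 to 195037120, plus strand, and Mir29c (ENSMUSG00000065548.1) follows at 195037547 to 195037634. Both chromosome 1 genes lie whole within an exon of the noncoding gene A330023F24Rik, on the same strand, and on the other strand within an exon of Cd46, which encodes a complement regulator. None of the 4 genes had a count on the opposite strand in either library.

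All 4 miR-29 genes were detected, that is, had at least 10 counts in both libraries, as did 445 of the 2202 genes. Levels are given as CPM, a gene's counts for every 1000000 gene-assigned counts of its library. The libraries' totals were 5183641 in replicate 1 and 5871233 in replicate 2. Mir29a held most of the family's gene-assigned counts. It had 19213 counts in replicate 1 and 24494 in replicate 2, which is 3706 and 4172 CPM, a mean of 3939 ± 329 CPM (SD, n = 2). This placed it at rank 46 of the 2202 genes by mean CPM. Mir29c, whose 3p arm differs from that of Mir29a by the base given above, had 1608 and 2463 counts, or 310 and 420 CPM, a mean of 365 ± 77.3 CPM (SD, n = 2). It stood at rank 142.

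The genes of miR-29b were far lower. Mir29b-2 had 196 and 307 counts, or 37.8 and 52.3 CPM, with a mean of 45.1 ± 10.2 CPM (SD, n = 2) and rank 233. Mir29b-1 had 164 and 311 counts, or 31.6 and 53.0 CPM, with a mean of 42.3 ± 15.1 CPM (SD, n = 2) and rank 236. Their values are what reached a gene without the reads aligned to several places. These reads numbered 6059074 in replicate 1 and 6908203 in replicate 2, which is 16831 and 11178 for each count on a Mir29b gene. How many of them are miR-29b-3p is not known from the tables, so the Mir29b levels do not measure the miRNA that both genes make.

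**Figure D2:**
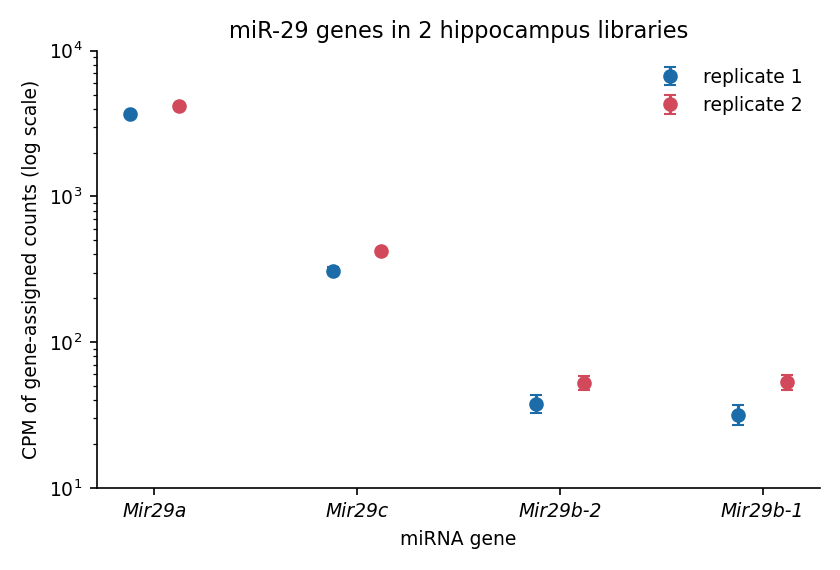
CPM (y axis, log scale) of the 4 miR-29 genes (x axis) in replicate 1 and replicate 2; bars are exact 95% binomial intervals, which cover counting error only. Mir29a sits near 3706 and 4172 CPM, Mir29c at 310 and 420 CPM, and both Mir29b genes between 31.6 and 53.0 CPM with overlapping bars within each library.

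The order Mir29a, Mir29c, then the Mir29b genes held in both libraries. Mir29a exceeded Mir29c 11.9-fold in replicate 1 and 9.94-fold in replicate 2, with exact 95% intervals from the counts of 11.4 to 12.6 and 9.54 to 10.4. Mir29c exceeded Mir29b-2 8.20-fold (7.07 to 9.56) and 8.02-fold (7.12 to 9.06). Mir29b-2 and Mir29b-1 changed places, at a ratio of 1.20 (0.966 to 1.48) in replicate 1 and 0.987 (0.840 to 1.16) in replicate 2, and both intervals include 1. The values of Mir29a and Mir29c did not overlap, nor did those of Mir29c and Mir29b-2, but 2 values against 2 cannot go below p = 0.333 in a 2-sided exact permutation test, which is what each of these gave. The exact permutation p for Mir29b-2 against Mir29b-1 was 1.

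In shares, Mir29a took 90.7% and 88.8% of the family's gene-assigned counts in the libraries, with exact 95% intervals of 90.3 to 91.1 and 88.4 to 89.2. These counts leave out reads aligned to several places. Mir29c took 7.59% (7.24 to 7.96) and 8.93% (8.60 to 9.27). The remainder was split about evenly between the Mir29b genes. The whole family held 0.409% of the gene-assigned counts in replicate 1 and 0.470% in replicate 2, with a mean of 0.439% ± 0.0432 (SD, n = 2). By genomic cluster, the chromosome 6 genes had 19377 and 24805 counts and the chromosome 1 genes 1804 and 2770. The chromosome 6 cluster was thus 10.7-fold (10.2 to 11.3) and 8.95-fold (8.61 to 9.32) above the chromosome 1 cluster, in counts that leave out reads aligned to several places.

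The genes of a cluster lie close together, and cluster mates can come from 1 primary transcript. Their gene-assigned counts were far apart. These counts leave out reads aligned to several places. Mir29b-1 has an arm that another gene also holds, and Mir29a has none. The gap between Mir29a and Mir29b-1 therefore does not measure their mature miRNAs. Mir29a exceeded its neighbour Mir29b-1 by 117-fold in replicate 1 (100.5 to 137) and 78.8-fold in replicate 2 (70.4 to 88.4). Among 112 neighbouring pairs of miRNA genes on 1 strand, less than 10000 bases apart and each averaging 10 counts or more, the median difference in level was 6.39-fold. In 5 of the 112 pairs, this one included, the genes were as far apart as Mir29a and Mir29b-1 or farther. For Mir29c and Mir29b-2 this held in 52 of the 112 pairs. These shares describe the tables and are no test.

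The cluster mates on chromosome 1 kept their ratio from library to library. The ratio of Mir29c to Mir29b-2 in replicate 2 was 0.978 of that in replicate 1 (95% interval 0.809 to 1.18). The intervals of such changes between libraries use a normal approximation on the log scale and are not exact. Of the 112 neighbouring pairs, 109 changed at least as much. The ratio of Mir29a to Mir29b-1 was not kept to that degree, at 0.672 (0.556 to 0.813), and 52 of the 112 pairs changed at least as much. Across the clusters, the ratio of Mir29a to Mir29c in replicate 2 was 0.832 of that in replicate 1 (0.779 to 0.889). These ratios are taken within a library and do not depend on how the libraries are scaled to each other.

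Other miRNAs made from paired loci were set beside miR-29b. The list held 21 pairs of genes, and in 16 of them both loci were detected. In replicate 1 the loci of the 15 other pairs differed by 1.65-fold to 105-fold, with a median of 3.40-fold, and in replicate 2 by 1.67-fold to 107-fold, with a median of 4.18-fold. The Mir29b loci differed by 1.20-fold and 1.01-fold, less than any of the 15 others in either library. The nearest pair was that of Mir30c-1 and Mir30c-2, of the miR-30 family, with 595 against 979 counts in replicate 1 and 864 against 1439 in replicate 2. Of the 15 other pairs, 14 had the same order in both libraries, the exception being Mir26a-1 and Mir26a-2, with 403 against 168 counts in replicate 1 and 62 against 2602 in replicate 2. In level, the Mir29b genes lay in the lower part of this list. Of the 40 other genes on it, 24 had a higher mean CPM than Mir29b-2 and 15 a lower one than Mir29b-1. No test was made of this ranking, and all of these counts leave out reads aligned to several places.

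**Figure D3:**
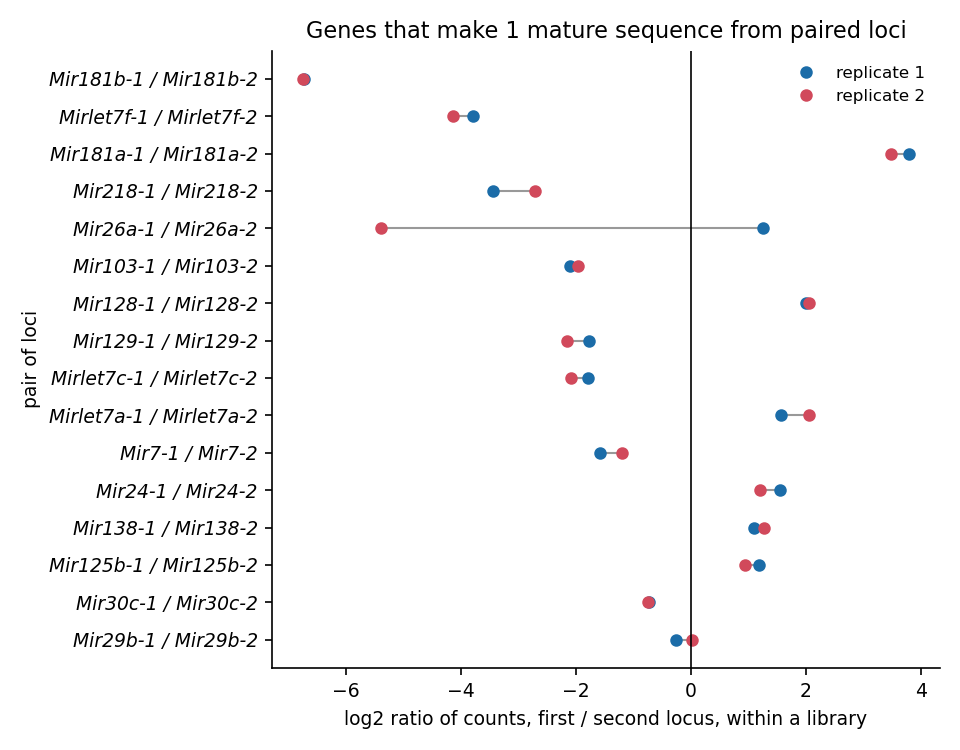
Log2 ratio of the counts at the first and the second locus (x axis) for the 16 pairs with both loci detected (y axis), in replicate 1 and replicate 2, with the pairs nearest to equal at the bottom. The Mir29b pair lies closest to 0, at -0.26 and 0.02, and Mir26a-1 and Mir26a-2 stand on opposite sides of 0 in the libraries.

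Set beside the miR-30 and miR-181 families, which also combine single genes with paired loci, the miR-29 family had fewer gene-assigned counts, and a larger share of them fell on 1 gene. None of these values includes reads with several places of alignment, and Mir29b-1, Mir29b-2, Mir30c-1, Mir30c-2, Mir181a-1, Mir181a-2, Mir181b-1 and Mir181b-2 each have an arm that another gene also holds, so the order of the families in mature miRNA was not measured. The 6 miR-30 genes held 1.39% and 1.46% of gene-assigned counts, led by Mir30d with 52.0% and 62.5% of them. The 6 miR-181 genes held 0.606% and 0.645%, led by Mir181b-2 with 35.4% and 31.4%, against the 90.7% and 88.8% of Mir29a in its family. The family shares and the leaders' shares did not overlap between the 3 families. Mir29a itself was close to Mir30a, which had 3656 and 3310 CPM and ranked just below it. Within miR-30, Mir30d had 8181 ± 1376 CPM (SD, n = 2), Mir30e 2148 ± 639, Mir30c-2 217 ± 39.8, Mir30c-1 131 ± 22.9 and Mir30b 89.0 ± 7.57. Within miR-181, Mir181b-2 had 2088 ± 83.9 CPM (SD, n = 2), Mir181d 2082 ± 62.7, Mir181c 1572 ± 444, Mir181a-1 456 ± 22.4, Mir181a-2 36.6 ± 4.07 and Mir181b-1 19.7 ± 1.09. The Mir29b genes were thus on the level of Mir181a-2. Genes of the miR-30 and miR-181 families with an arm that another gene holds ranged from 19.7 CPM (Mir181b-1) to 2088 CPM (Mir181b-2).

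**Figure D4:**
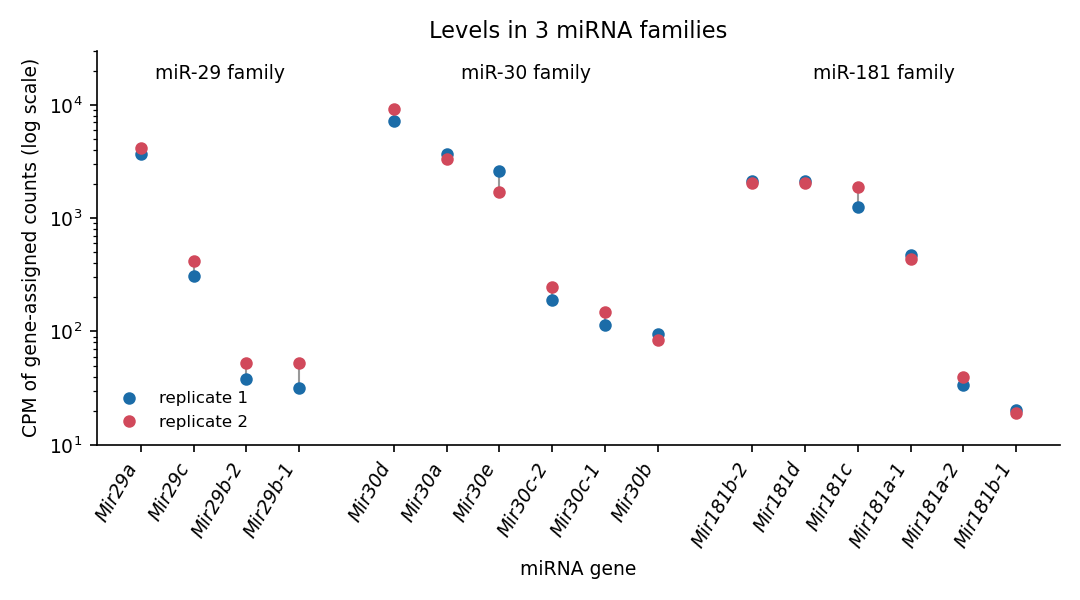
CPM (y axis, log scale) of the genes of the miR-29, miR-30 and miR-181 families (x axis) in replicate 1 and replicate 2, ordered by level within a family. Mir29a stands alone at the top of its family, whereas the 3 highest miR-30 genes lie between 2148 and 8181 CPM in mean level and the 3 highest miR-181 genes between 1572 and 2088.

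In rank by mean CPM, Mir29a stood between Mir219a-2 (4230 ± 677 CPM, SD, n = 2) and Mir378a (4196 ± 347) above it and Mir30a (3483 ± 245) and Mir107 (3205 ± 390) below. Mir219a-2 is known as a miRNA of myelinating oligodendrocytes. Mir29c stood between Mir329 (395 ± 159) and Mir380 (367 ± 55.3) above and Mir421 (362 ± 55.1) and Mir15b (358 ± 131) below. The gaps from Mir29c to these 4 genes were smaller than its own SD. With 2 libraries of 1 group no likeness of pattern across conditions can be given.

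The miR-29 genes were then read against lists of miRNA genes of mature and of immature cells. Of 14 genes with high levels in mature brain, 12 were detected, led by Mir139 (116379 CPM), Mir132 (17116 CPM) and Mir128-1 (6294 CPM), and Mir29a lay below these. Of 11 genes of early embryonic cells none was detected. They had 7 and 11 counts in all, with Mir302d, Mir302a and Mir292 highest, and even Mir29b-1 had more counts than the whole list. Of 14 genes of the Mir17 clusters, which are active in dividing progenitors, 9 were detected, with Mir93 at 2212 CPM as the highest, followed by Mir17 at 1093 and Mir92-1 at 665. Mir29a was above and Mir29c below all 3 of these, and 3 of the 14 genes had no counts. The counts of all these lists leave out reads aligned to several places.

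The libraries were compared gene by gene with a 2-sided exact binomial test, with Benjamini-Hochberg adjustment over 472 genes, those whose counts averaged at least 10. All 4 miR-29 genes were called higher in replicate 2. Over all genes tested 59.7% were called in either direction and 39.4% were called higher in replicate 2, so a call was common. The log2 ratio of CPM + 1 was 0.17 for Mir29a (1.13-fold, exact 95% interval 1.10 to 1.15, adjusted p of the binomial test 4.34e-34). For Mir29c it was 0.43 (1.35-fold, 1.27 to 1.44, binomial test adjusted p 9.19e-21). Mir29b-2 had 0.46 (1.38-fold, 1.15 to 1.66, binomial test adjusted p 0.00086). Mir29b-1 had the widest difference of the 4, 0.73 (1.67-fold, 1.38 to 2.04, binomial test adjusted p 1.42e-07).

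These differences were of ordinary size for these libraries. The median absolute log2 ratio was 0.34 over the 291 genes whose counts averaged at least 100, and the log2 ratio of Mir29a was itself the median of the 291. A difference as large as that of Mir29a was seen in 72.5% of the 291, as large as that of Mir29c in 40.9%, of Mir29b-2 in 38.5% and of Mir29b-1 in 19.6%. Since the test takes reads as independent and leaves out the spread between samples, it compares 2 libraries and shows nothing about animals of this kind. The direction of Mir29a depended on the scaling. Trimmed mean of M-values (TMM) scaling moved every log2 ratio by -0.17, after which that of Mir29a was -0.00072 and not called. Under it the other 3 miR-29 genes were still called higher in replicate 2, as were 29.9% of all genes tested. The binomial test adjusted p of Mir29b-2 was then 0.043, near the threshold of 0.05. The calls over all genes split into 186 for replicate 2 and 96 for replicate 1, against 141 and 137 under TMM.

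**Figure D5:**
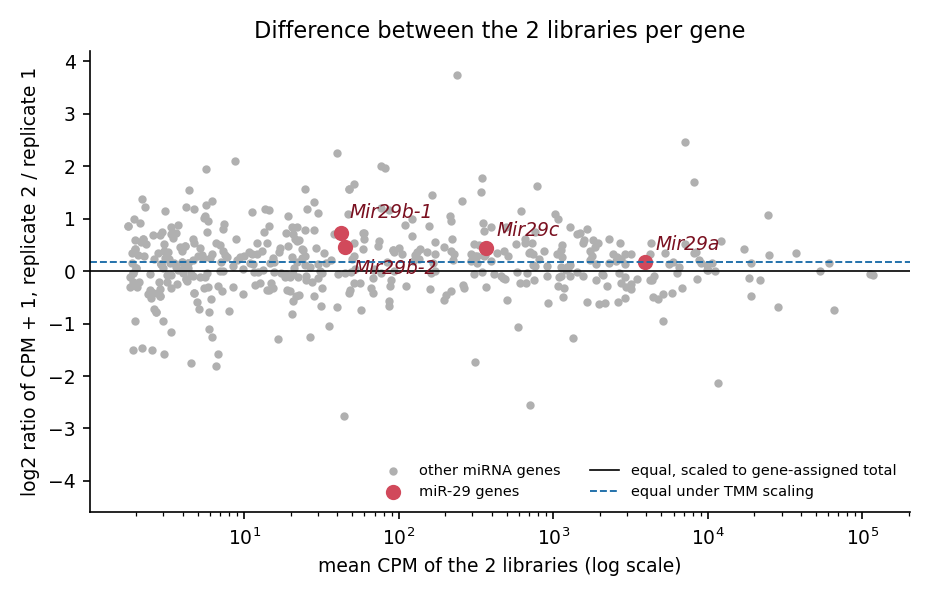
Log2 ratio of CPM + 1, replicate 2 over replicate 1 (y axis), against mean CPM (x axis, log scale) for the 472 genes tested, with the miR-29 genes in red; the solid line marks equal levels under scaling to the gene-assigned total and the dashed line under TMM. Mir29a lies on the dashed line, and Mir29c, Mir29b-2 and Mir29b-1 lie above it at 0.43, 0.46 and 0.73.

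The tissue label was read against marker miRNA genes, in the share of gene-assigned counts in replicate 1 and replicate 2. Neuronal genes (9 of 12 detected) held 3.31% and 3.49%, while no copy of the neuronal Mir124a had more than 16 counts in a library, and astroglia-associated genes other than miR-29 (5 of 5) held 3.08% and 2.29%. Oligodendrocyte genes (2 of 3) held 0.525% and 0.668% and vessel genes (3 of 3) 0.931% and 0.879%. Genes of microglia and leukocytes held 0.174% and 0.170%, of choroid plexus and ciliated cells 0.136% and 0.110%, of muscle and liver 0.00972% and 0.0178%, and of red blood cells 0.00419% and 0.00569%. All of these shares leave out reads aligned to several places, so they do not measure the miRNA of genes with copies, Mir124a included. Beside the higher miR-29 values of replicate 2, the oligodendrocyte genes (3 of 3 tested) were also called higher there. Their log2 ratios were 0.33 and 0.39 for the 2 detected genes. The third, Mir219a-1, had 1.95 but only 9 and 56 counts. Red blood cell genes (2 of 3, 0.57 and 0.75) and muscle and liver genes (2 of 2 tested among 6 listed, 0.79 and 0.88) were called higher too. Also called higher were 3 of the 5 astroglia-associated genes, Mir27b (0.72), Mir21a (1.00) and Mir27a (1.21). The most abundant of the 5, Mir23b (-0.47) and Mir23a (-0.94), were called lower. In the other groups more genes were called lower than higher. Of 9 neuronal genes tested 6 were lower and 1 higher, and of 3 vessel genes 2 and 1. Of 5 microglia and leukocyte genes 2 were lower and 1 higher, and of 5 choroid plexus and ciliated cell genes 3 and 1. These counts stand beside the 39.4% of all genes tested that were called higher in replicate 2. Called lower in replicate 2 were 96 of all 472 genes tested, and 137 of 472 under TMM scaling. The part of these cell types in the miR-29 differences was not tested. In bulk tissue, fewer cells of a type and less RNA per cell cannot be told apart.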

How the data were processed

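The deposited values are unnormalized counts of reads on miRNA genes, 1 table a library, on mm10 with GENCODE M21 per the text file deposited with each. Which aligner and counter were used is not given in the sources used here. Of the 3 count columns, the one on the gene's strand was used, and library sizes leave out the 4 rows that name no gene. Those include reads aligned to several places, 43.6% and 43.2% of reads, and gene-assigned counts were 37.3% and 36.7%. No molecular identifiers are mentioned, so the 95% intervals cover counting error only. They are exact (Clopper-Pearson), except those for changes of a ratio between libraries, which use a normal approximation on the log scale. For a count of 0 the upper limit was set at 3 counts, which is 0.579 CPM in replicate 1 and 0.511 CPM in replicate 2.

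CPM used all gene rows, with a pseudocount of 1 CPM on the log2 scale. With 1 group there is no coefficient for edgeR's quasi-likelihood test, so counts were tested with the exact binomial test (scipy 1.17.1), checked on simulated data, with edgeR 4.0.16 TMM factors (over genes averaging at least 10 counts) and DESeq2 1.42.0 size factors as alternatives. The biological coefficient of variation was 0.320 over 472 genes. Mature sequences came from RefSeq and hairpins from GENCODE M21, which held the same 4 hairpins. The genome-wide match of stretches that had been planned was replaced by miRNA genes and transcripts.

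The members, lists and rules were chosen with earlier results of these data known. Named are the 4 members, the 2 genes above and 2 below Mir29a and Mir29c in rank, the miR-30 and miR-181 genes and the 3 highest genes of the mature brain, early embryo and Mir17 lists. Marker lists are given by share and the paired-locus list by its folds. Mir124a, Mir219a-1, Mir26a-1, Mir26a-2 and the astroglia-associated genes were named after their values were seen. The ranking of paired loci and the neighbouring pairs were added then too. The list symbols Mir292a, Mir7a-1 and Mir7a-2 were matched to Mir292, Mir7-1 and Mir7-2 by RefSeq synonyms.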

Additional observations from a re-analysis of the deposited data

Results flagged for a closer look

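Reads aligned to several places, which no gene value uses, numbered 6059074 in replicate 1 and 6908203 in replicate 2. They came to 286 and 251 reads for each count on a miR-29 gene. Since miR-29b-3p lies whole in 2 genes, any such reads stand outside the values of Mir29b-1 and Mir29b-2, and their number was not given.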

How the results depend on the processing

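When the total also held the reads aligned to several places, the mean levels were 1813 CPM for Mir29a, 168 for Mir29c, 20.7 for Mir29b-2 and 19.5 for Mir29b-1, and the family share was 0.202%. This follows from the larger total. The log2 ratio of Mir29a between libraries changed sign under TMM (-0.00072, binomial test adjusted p 1) and under DESeq2 size factors (-0.0046, adjusted p 0.818), and over its 8 alternatives it ran from -0.0046 to 0.18. Those of Mir29b-1, Mir29b-2 and Mir29c kept their direction and call under all 8 alternatives each. They ran from 0.55 to 0.74, 0.29 to 0.47 and 0.26 to 0.45. For Mir29b-2 the binomial test adjusted p was 0.043 under TMM and 0.047 under DESeq2 size factors. Of the 8, the total without the 10 most abundant genes was chosen after seeing the data. Without replicate 1 or without replicate 2, the levels ran from 3706 to 4172 CPM for Mir29a, 310 to 420 for Mir29c, 37.8 to 52.3 for Mir29b-2 and 31.6 to 53.0 for Mir29b-1, the family share from 0.409% to 0.470% and the ratio of Mir29a to Mir29c from 9.94 to 11.9. Genes called between the libraries numbered 242 to 284 over 6 alternatives, against 282. DESeq2 size factors split them into 138 higher in replicate 2 and 139 in replicate 1. Detected genes of the paired-locus list numbered 30 with at least 100 counts and 36 with at least 1 count, against 34. With stretches of 18, 22 or 24 bases in place of 20, Mir29a remained without a stretch held by another miRNA gene, but 2 of its 71 stretches of 18 bases occur in a transcript of Lims1. No paired analysis was possible because there is 1 group.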
